A study of Mus musculus with 53 samples.

Results

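Mymk and Mymx, the pair of genes whose products fuse myoblasts, were followed through the mouse cerebellum in every RNA library of the study. Both were found by symbol, as 2 of 55573 genes in the bulk tables and 2 of 57010 genes in the single-cell tables. Mymk encodes myomaker, a multipass membrane protein that must be present on both fusing cells and brings their outer membrane leaflets together. Mymx encodes a microprotein, called myomixer, myomerger or minion, that opens the fusion pore. Both are switched on by the myogenic regulators MyoD and myogenin when myoblasts leave the cell cycle to differentiate, and both fall again once fibres have formed. Neither gene belongs to the known programme of the developing cerebellum, whose most abundant cells are granule neurons and their Atoh1-expressing progenitors.

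The study deleted either Insm1 or Tead1 and Tead2 with Atoh1Cre, a recombinase that acts in cells of the Atoh1 lineage. Insm1 mutants were Atoh1Cre; Insm1fl/fl, and their controls were Insm1fl/fl without Cre. Tead1/2 mutants were Atoh1Cre with both Tead1fl/fl and Tead2fl/fl, and their controls carried the same floxed alleles without Cre. Insm1 encodes a zinc finger repressor of neuronal and endocrine progenitors, and Tead1 and Tead2 encode DNA-binding partners of YAP and TAZ. At postnatal day 2 (P2), total RNA of whole cerebella was sequenced of 4 mutants and 4 controls for Insm1 and of 4 mutants and 3 controls for Tead1/2, each an individual pup. Per the labels the Insm1 and Tead1/2 bulk libraries were separate batches, so each mutant group was compared only with the controls of its own line. At postnatal day 7 (P7), dissociated cells of 10 cerebella were profiled with a split-pool kit, with each library from 1 animal. These animals were 2 controls and 3 mutants of each line. The labels give all P7 cells as 1 sample of mixed controls and mutants. Replicate 1 of every P7 group was made from all lobules and the others without lobules IX and X.

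Bulk libraries held 28066643 to 64518751 expected counts. The P7 libraries gave 79838 cells, 4779 to 10710 per library, with medians of 6866 to 10187 transcripts (UMIs) per cell. No barcode was shared by any 2 of the libraries. Insm1 itself fell in the Insm1 mutants, from 30.8 to 72.0 CPM (the usual library-scaled count) in the P2 controls to 8.45 to 16.1 CPM in the P2 mutants. With all 4 P2 Tead1/2 mutants neither Tead1 nor Tead2 was called, with log2 changes of -0.09 and -0.22. Without the library labelled mutant 4, described next, Tead2 fell by 0.35 on the log2 scale (edgeR FDR 0.0417). The counts cover whole genes, and the deleted part is not given. At P7 Tead2 fell (log2 -1.95) and Tead1 rose (log2 0.93) in the Tead1/2 mutants. The library labelled Tead1/2 mutant 4 at P2 stood apart from the other 3 mutants of its group. Its Tead2 level of 25.9 CPM was the highest in that line, and its Myog and Myod1 levels, 0.415 and 0.255 CPM, lay far below those of the other 3. The P2 tests of both members that use the Tead1/2 line are therefore given with and without it.

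At P2 Mymk and Mymx rose in the Insm1 mutants. Mymk was counted 3, 7, 0 and 0 times in Insm1 controls 1 to 4, and 72, 48, 24 and 38 times in Insm1 mutants 1 to 4. Scaled for library size, this was 0.0651 ± 0.0887 CPM in controls and 1.29 ± 0.398 CPM in mutants (mean ± SD, n = 4 each). The lowest mutant, at 0.799 CPM, lay above the highest control, at 0.188 CPM. Mymx was counted 25, 48, 19 and 12 times in the controls and 249, 172, 103 and 113 times in the mutants, or 0.706 ± 0.403 against 4.53 ± 1.25 CPM. Its groups did not overlap either, with 1.29 CPM in the highest control and 3.43 CPM in the lowest mutant. Of all genes tested, 3.16% had every mutant above every control.

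By edgeR's quasi-likelihood test, with p-values adjusted over all 19582 genes tested (false discovery rate, FDR), Mymk rose by 4.19 on the log2 scale (SE 0.58, FDR 0.00878) and Mymx by 2.67 (SE 0.34, FDR 0.00605). Both were higher in 4 of 4 mutants, and in this comparison 0.48% of the genes tested were called higher and 0.689% in either direction. Without Insm1 control 1 the Mymk call was lost (log2 4.21, FDR 0.0505). Without Insm1 control 2, which held 7 of the 10 Mymk counts of the controls, its log2 change was 5.39 (FDR 0.00852). A bulk level cannot tell fewer cells with a transcript from less of it in each cell.

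In the Tead1/2 line 3 of 4 mutants had high levels and the library labelled mutant 4 did not. Mymk was counted 3, 3 and 0 times in Tead1/2 controls 1 to 3 and 53, 89, 60 and 0 times in the libraries labelled mutants 1 to 4. Mymx was counted 14, 19 and 10 times in the controls and 230, 354, 222 and 16 times in the mutants. Mymk averaged 0.0486 ± 0.0421 CPM in controls (n = 3) and 1.07 ± 0.737 CPM in mutants (n = 4). Mymx averaged 0.385 ± 0.0577 CPM in controls and 4.37 ± 2.60 CPM in mutants, with 0.511 CPM in the library labelled mutant 4, just above the highest control at 0.451 CPM. Every mutant lay above every control for 9.48% of all genes, Mymx among them and Mymk not.

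With all 4 mutants, neither gene passed the edgeR test. Mymk had a log2 change of 4.27 (SE 1.07, FDR 0.102) and Mymx of 3.50 (SE 0.70, FDR 0.0898). In that fit edgeR called 0 of 20247 genes (0%), while 4052 had an unadjusted p under 0.05. DESeq2 called 960 genes on the same libraries, among them Mymx (log2 3.50, adjusted p 0.00222), and gave no adjusted p for Mymk. DESeq2 called 2.89% of the genes higher and 4.74% in either direction. With no filter on low counts edgeR called both members, Mymk at 4.29 (FDR 2.5e-07) and Mymx at 3.52 (FDR 7.61e-12), with 1.93% of the genes higher and 3.14% in either direction. Without the library labelled mutant 4, the mutant means were 1.42 ± 0.231 CPM for Mymk and 5.66 ± 0.471 CPM for Mymx (n = 3). Every remaining mutant then lay above every control for both genes, as it did for 14.2% of all genes. In that fit Mymk rose by 4.64 (SE 0.43, edgeR FDR 0.000523) and Mymx by 3.85 (SE 0.18, FDR 3.97e-06), and 1.98% of the genes were called higher and 3.19% in either direction.

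**Figure D1:**
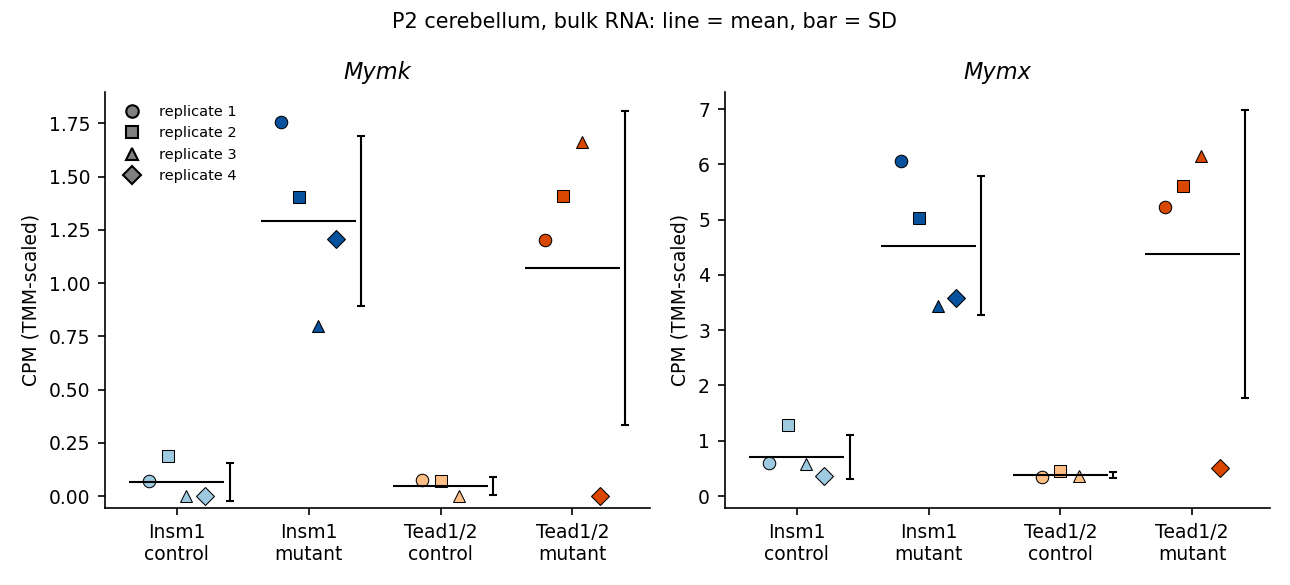
Mymk (left) and Mymx (right) in the 15 bulk libraries of P2 cerebellum, in CPM on a linear axis. Each point is 1 library, horizontal lines are group means and vertical bars are SDs. All 4 Insm1 mutants lie above their controls, and in the Tead1/2 line the library labelled mutant 4 lies at the control level (0 CPM Mymk, 0.511 CPM Mymx).

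The 2 deletions were not shown to differ in their effect at P2. The Tead1/2 effect minus the Insm1 effect was 0.08 for Mymk on the log2 scale (SE 1.42, edgeR FDR 0.996, 95% interval from -2.70 to 2.86). For Mymx it was 0.83 (SE 0.85, FDR 0.915, interval -0.83 to 2.49). The first interval allows a difference of several-fold in either direction. Without the library labelled Tead1/2 mutant 4 the difference was 0.45 for Mymk (SE 1.04, FDR 0.972, interval -1.58 to 2.48) and 1.18 for Mymx (SE 0.47, FDR 0.656, interval 0.27 to 2.10). The Mymx interval then lay above 0, at an unadjusted p of 0.0233 in the edgeR fit, and the difference did not pass the adjustment over all genes. Across 20837 genes edgeR called 0 in this test (0%), with 1435 at an unadjusted p under 0.05, and DESeq2 called 17. The sign of the Mymk difference turned when any of 5 libraries was left out, and was -1.14 without Insm1 control 2.

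At P7 both genes were strongly expressed in all 6 mutant libraries and close to absent in all 4 controls. Summed over the cells of each library, Mymk gave 50 and 39 UMIs in the Insm1 controls and 2640, 3327 and 2616 in the Insm1 mutants. It gave 20 and 17 UMIs in the Tead1/2 controls and 3976, 10933 and 5729 in the Tead1/2 mutants. Mymx gave 41 and 51 UMIs in the Insm1 controls, 700, 1217 and 963 in the Insm1 mutants, 19 and 18 in the Tead1/2 controls and 536, 2492 and 1200 in the Tead1/2 mutants. Mutants and controls did not overlap in either line for either gene, as for 31% of all genes in the Insm1 line and 35.3% in the Tead1/2 line.

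In CPM, Mymk averaged 0.247 ± 0.0408 in the 2 controls and 23.7 ± 1.30 in the 3 mutants of the Insm1 line. It averaged 0.160 ± 0.0197 in the 2 controls and 44.9 ± 4.09 in the 3 mutants of the Tead1/2 line (mean ± SD). The 3 Tead1/2 mutants, at 41.6 to 49.4 CPM, all lay above the 3 Insm1 mutants, at 22.3 to 24.9 CPM. Across all genes 21.2% had that order. Mymx averaged 0.256 ± 0.0417, 7.89 ± 1.40, 0.162 ± 0.0321 and 8.62 ± 2.70 CPM in the same groups. Its mutant ranges overlapped, from 6.35 to 9.10 CPM in the Insm1 line and from 5.87 to 11.3 CPM in the Tead1/2 line.

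**Figure D2:**
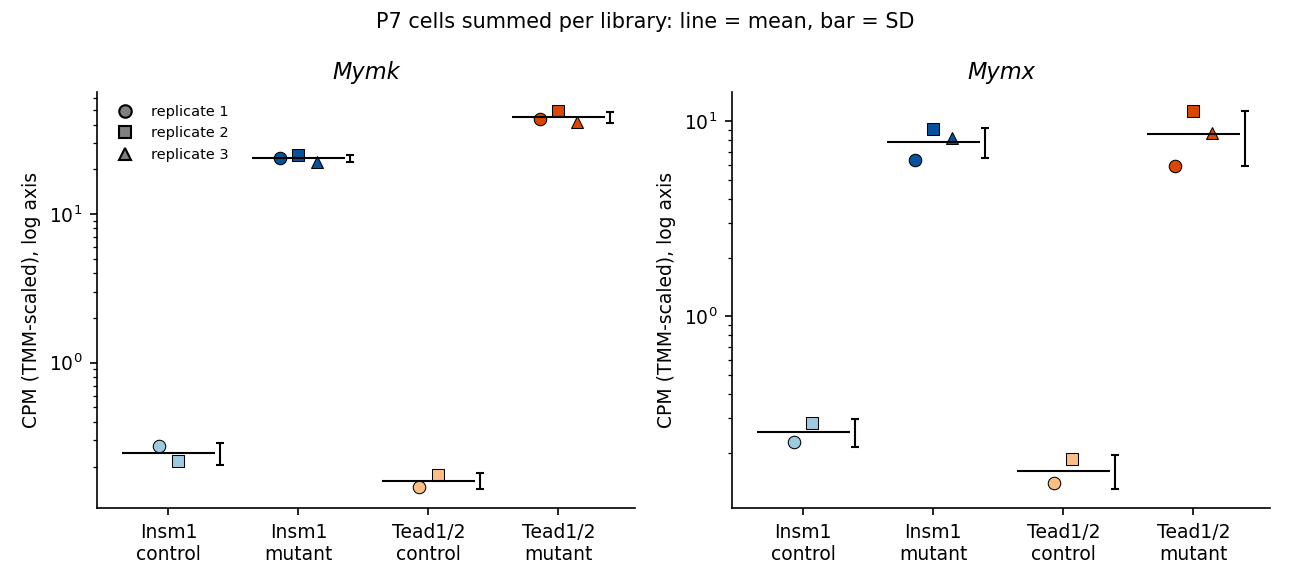
Mymk (left) and Mymx (right) in the 10 single-cell libraries of P7 cerebellum, as CPM of the UMIs summed over cells, on a log axis. Each point is 1 library, horizontal lines are means and bars are SDs. All mutants lie above all controls for both genes, and the Tead1/2 mutants lie above the Insm1 mutants for Mymk only.

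The edgeR test on these sums called both genes in both lines. In the Insm1 mutants Mymk rose by 6.58 on the log2 scale (SE 0.14, FDR 9.95e-09) and Mymx by 4.94 (SE 0.32, FDR 1.94e-06), in a comparison that called 18.6% of 24602 genes higher and 33.9% in either direction. In the Tead1/2 mutants Mymk rose by 8.14 (SE 0.16, FDR 3.75e-09) and Mymx by 5.76 (SE 0.36, FDR 8.35e-07), where 25.9% of genes were called higher and 48.6% in either direction. The direction held within each dissection, where 1 control was left per line and no test was made. With all lobules the log2 ratio of mutant to control was 6.44 (Insm1) and 8.22 (Tead1/2) for Mymk and 4.81 and 5.40 for Mymx. Without lobules IX and X it was 6.76 and 8.03 for Mymk and 4.92 and 5.76 for Mymx. Over all deposited barcodes instead of cells, the Mymk changes were 5.72 (Insm1) and 6.25 (Tead1/2) and the Mymx change in the Tead1/2 mutants was 4.91. Without cells marked as doublets by the caller Scrublet, the Insm1 change of Mymk was 5.24. Both genes stayed called in these fits.

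The Mymk effect was larger in the Tead1/2 mutants, by 1.56 on the log2 scale (SE 0.22, edgeR FDR 0.00773, interval 1.13 to 1.99), and this test of the difference called 2.17% of genes higher and 3.68% in either direction. It stayed called without any single library, between 1.40 and 1.74. Without Scrublet-marked cells it was 2.78 (FDR 0.00369), and over all deposited barcodes it was 0.52 and not called (FDR 0.177). For Mymx the difference was 0.82 (SE 0.50, FDR 0.403, interval -0.16 to 1.79), so that neither equal effects nor a difference of about that of Mymk lay outside the interval.

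The balance between the 2 transcripts differed between the datasets. In mutants with Mymk counts at P2, 0.230 to 0.336 Mymk counts were found per Mymx count. At P7 the Insm1 mutants held 3.77, 2.73 and 2.72 Mymk UMIs per Mymx UMI and the Tead1/2 mutants 7.42, 4.39 and 4.77, while the 4 controls held 0.765 to 1.22. The datasets differ in age and in library chemistry, whose parts in this cannot be told apart. In each line mutant 1, the P7 mutant library made from all lobules, had the highest ratio, at 3.77 and 7.42. The part of the dissection in that was not tested.

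The transcripts were found in a minority of cells. With every cell thinned to 2000 UMIs, and 1353 shallower cells left out, a Mymk UMI was found in 3.79 ± 0.293% of cells of the Insm1 mutants and 6.61 ± 1.12% of the Tead1/2 mutants (n = 3 libraries each). In the controls it was found in 0.0631 ± 0.00450% and 0.0526 ± 0.0148% (n = 2 each). Mymx was found in 1.76 ± 0.344% and 1.86 ± 0.769% of mutant cells and in 0.0262 ± 0.00314% and 0.0210 ± 0.0149% of control cells. Without thinning the mutant shares were 16.0 ± 2.63% and 23.7 ± 6.19% for Mymk and 9.95 ± 2.64% and 10.3 ± 5.01% for Mymx. The two-sided exact permutation test of 2 against 3 libraries gave p = 0.2 for each gene and line, the smallest it can give.

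Barcodes too shallow to count as cells held both transcripts as well. Among those under 100 UMIs Mymk stood at 19.2 to 21.4 CPM in the Insm1 mutants and 26.2 to 43.0 in the Tead1/2 mutants. In such barcodes of the controls it stood at 2.61 to 5.79 CPM, above the 0.144 to 0.263 CPM of control cells. Where these transcripts came from was not tested. In the mutants, granule neuron-like clusters held a Mymk UMI in 0.0769 to 0.528% of cells after thinning, at median depths of 5562 to 7526 UMIs. Granule neurons belong to the lineage in which Atoh1Cre acts. GABAergic interneuron-like clusters held one in 0 to 0.373%. In the 4 controls granule neuron-like clusters held one in 0 to 0.112% of cells and interneuron-like clusters in 0 to 0.0949%. Insm1 mutant 1 lay within the control range for the granule neuron-like clusters and Insm1 mutant 3 for the interneuron-like clusters, and in each case the other 5 mutants lay above it.

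Both transcripts lay mostly in cells with sarcomere transcripts, here cells with UMIs of at least 3 of 30 sarcomere genes after thinning. Such cells made up 12.8, 13.8 and 15.4% of the 3 Insm1 mutant libraries, 23.9, 36.3 and 24.2% of the Tead1/2 mutants, and 0.137 to 0.300% of the controls. They held 69.7 to 72.8% of all Mymk UMIs in the Insm1 mutants and 87.4 to 92.8% in the Tead1/2 mutants. Of Mymx UMIs they held 57.2 to 60.2% and 79.4 to 89.7%. Sarcomere cells were deep, and held 28.8 to 34.4% of all UMIs in the Insm1 mutants and 38.8 to 62.4% in the Tead1/2 mutants. In each of the 6 libraries they held a larger share of the Mymk than of the Mymx UMIs.

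Within these cells Mymk stood at 60.2, 56.1 and 45.8 CPM in Insm1 mutants 1 to 3 and at 88.8, 75.2 and 99.8 in Tead1/2 mutants 1 to 3. The 19 and 12 such cells of Insm1 controls 1 and 2 held 16 and 11 Mymk UMIs, or 42.2 and 84.1 CPM, which is 32% and 28.2% of the Mymk UMIs of these libraries. Only 4 and 3 of these sarcomere cells held a Mymk UMI, so the 2 levels rest on few cells. The 13 and 19 such cells of the Tead1/2 controls held 0 Mymk UMIs. Mymx stood at 12.8, 17.5 and 13.8 CPM in the Insm1 mutants and 11.6, 16.3 and 18.98 in the Tead1/2 mutants, and the ranges overlapped. In edgeR's test over the 6 libraries Mymk was higher in the Tead1/2 cells by 0.72 on the log2 scale (SE 0.13, FDR 0.00613), where 13.3% of 19811 genes were called higher and 27.8% in either direction. Mymx differed by 0.10 (SE 0.17, FDR 0.700, interval -0.24 to 0.44). Without Scrublet-marked cells the Mymk difference was 0.06 and not called (FDR 0.992). That of Mymx was then -0.98 (SE 0.76, FDR 0.751), of the other sign and not called. Its SE was larger than the 0.17 above, and the 2 Mymx values were not shown to differ. Scrublet marked 0 to 1 cells in 3 of the 10 libraries and 36.4 to 55.3% in the other 7, so marked cells were kept. Of the sarcomere cells, 3345 of 7054 (47.4%) in the Tead1/2 mutants and 899 of 2665 (33.7%) in the Insm1 mutants showed 10 or more sarcomere genes, and the part of this in the Mymk difference was not tested.

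The 2 members differed along the range of sarcomere genes. The share of cells with a Mymk UMI was 0.383 to 0.560% over the 6 mutant libraries where no sarcomere gene was seen, 1.46 to 2.57% with 1 such gene and 5.25 to 9.01% with 2. With 3 to 5 genes it was 16.0 to 18.4% in the Insm1 mutants and 17.6 to 22.2% in the Tead1/2 mutants, and with 10 or more it was 20.5 to 22.3% and 17.4 to 20.8%. With 6 to 9 genes it was 14.7 to 16.7% and 20.02 to 24.1%. After thinning to 2000 UMIs, Mymk detection was thus higher at 10 or more genes than at 6 to 9 in the 3 Insm1 mutants. It was lower in the 3 Tead1/2 mutants. This opposite order concerns the share of cells with a UMI only, and the Mymk level need not follow it. Mymx reached 8.17 to 12.7% in the Insm1 mutants with 3 to 5 genes, 6.06 to 9.09% with 6 to 9 and 2.33 to 3.73% with 10 or more. Insm1 mutant 3 had its highest share with 6 to 9 genes, at 9.09% against 8.17% with 3 to 5. In the Tead1/2 mutants it was highest with 6 to 9 genes, at 6.63 to 8.50%, and 2.67 to 4.73% with 10 or more. Mymx detection was lower at 10 or more genes than at 6 to 9 in all 6 libraries.

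**Figure D3:**
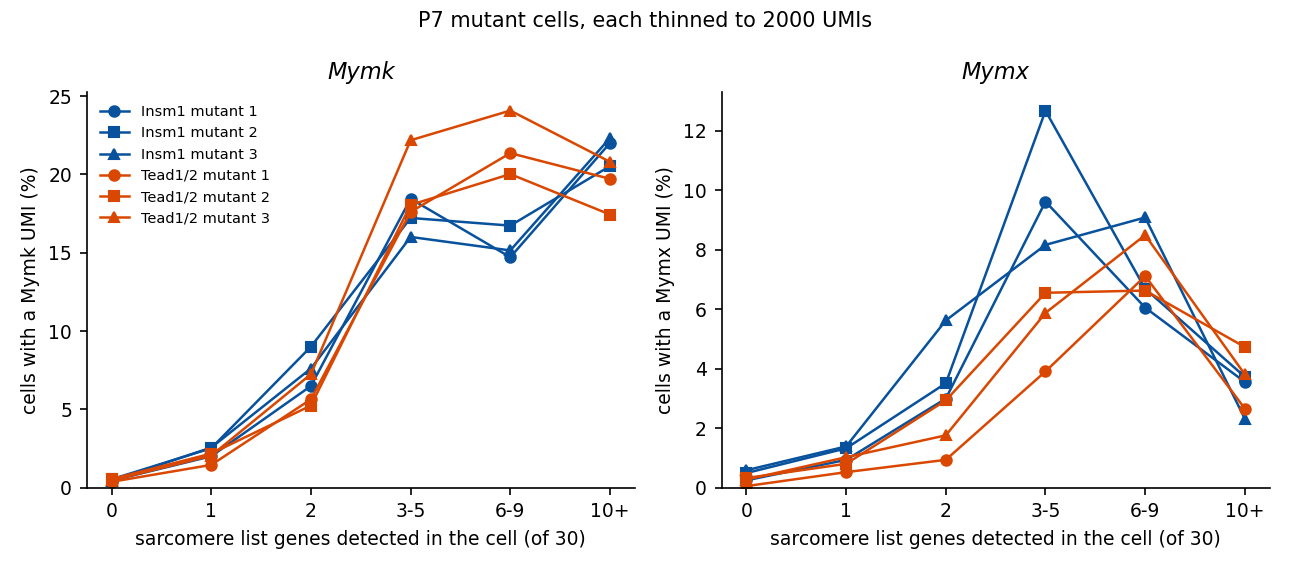
Share of cells with a Mymk (left) or Mymx (right) UMI against the number of the 30 sarcomere genes seen in the cell, after thinning each cell to 2000 UMIs. Each line is 1 of the 6 P7 mutant libraries. Mymk stays between 17.4 and 22.3% in the last bin, while Mymx falls to 2.33 to 4.73%.

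Detection also followed the myogenic regulators. Cells were sorted by whether they held a UMI of Myod1 or Myog, which encode MyoD and myogenin, and by their sarcomere genes. With a regulator UMI and no sarcomere gene, Mymk was found in 5.27% of 493 cells of the Insm1 mutants and 5.10% of 294 cells of the Tead1/2 mutants. With a regulator UMI and 1 or more sarcomere genes it was found in 21.0% of 1765 and 25.4% of 3133 cells. With 3 or more sarcomere genes and no regulator UMI it was found in 13.6% of 1657 and 15.1% of 4586 cells. With none of these transcripts it was found in 0.273% of 10970 and 0.329% of 9741 cells. Mymx was found in 2.84 and 2.04%, 9.46 and 7.79%, 4.83 and 3.69%, and 0.319 and 0.164% of the same 4 sets of cells. Both genes were thus most often seen in cells with regulator and sarcomere transcripts together.

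How often a sarcomere cell showed either gene varied with its depth. In the Insm1 mutants an unthinned Mymk UMI was found in 34.4% of sarcomere cells with 2000 or more but under 4000 UMIs and in 84.0% of those with 32000 or more. In the Tead1/2 mutants these shares were 31.1 and 88.0%. Relative to the RNA counted, Mymk stood at 165 CPM in Insm1 mutant cells of this shallowest bin, at 182 CPM in those with 4000 or more but under 8000 UMIs and at 40.5 CPM in the deepest cells. For the Tead1/2 mutants these levels were 149, 168 and 69.2 CPM. At equal depth the share was 26.6, 27.1 and 10.4% in the same bins of the Insm1 mutants and 18.3, 26.6 and 14.4% in the Tead1/2 mutants. The deepest sarcomere cells therefore showed a Mymk UMI most often and had the lowest level relative to their RNA, while the level was highest in the bin from 4000 UMIs.

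Mymx was likewise highest in the bin from 4000 UMIs and lowest in the deepest cells. It stood at 73.0, 82.3 and 9.55 CPM in the same 3 bins of the Insm1 mutants and at 24.5, 47.5 and 12.1 CPM in the Tead1/2 mutants. Its share at equal depth was 10.4, 15.9 and 2.24% in the Insm1 mutants and 5.52, 8.75 and 3.53% in the Tead1/2 mutants. Sarcomere cells with a Mymk UMI at 2000 UMIs were shallower than those without in every mutant library, with medians such as 9337 against 18722 UMIs in Insm1 mutant 1 and 12772 against 19799 in Tead1/2 mutant 3. For Mymx these medians were 6176 against 16790 and 10414 against 18879. Over all cells, those with a Mymk UMI at 2000 UMIs were instead deeper than those without in every mutant library. Medians were 8946 against 6879 UMIs in Insm1 mutant 1 and 12244 against 10249 in Tead1/2 mutant 3. For Mymx the order over all cells differed between libraries. The Mymk level over all cells was highest at 32000 or more UMIs, at 24.9 CPM (Insm1 mutants) and 55.6 CPM (Tead1/2 mutants). Scrublet marked 70.7 and 75.6% of the sarcomere cells with 32000 or more UMIs (Insm1 and Tead1/2 mutants) and 5.70 and 6.31% of those in the bin from 4000. These pooled shares include Insm1 mutant 1 and Tead1/2 mutant 1, in which Scrublet marked 0 and 1 of all cells. The part of cell doublets in these trends was not tested.

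**Figure D4:**
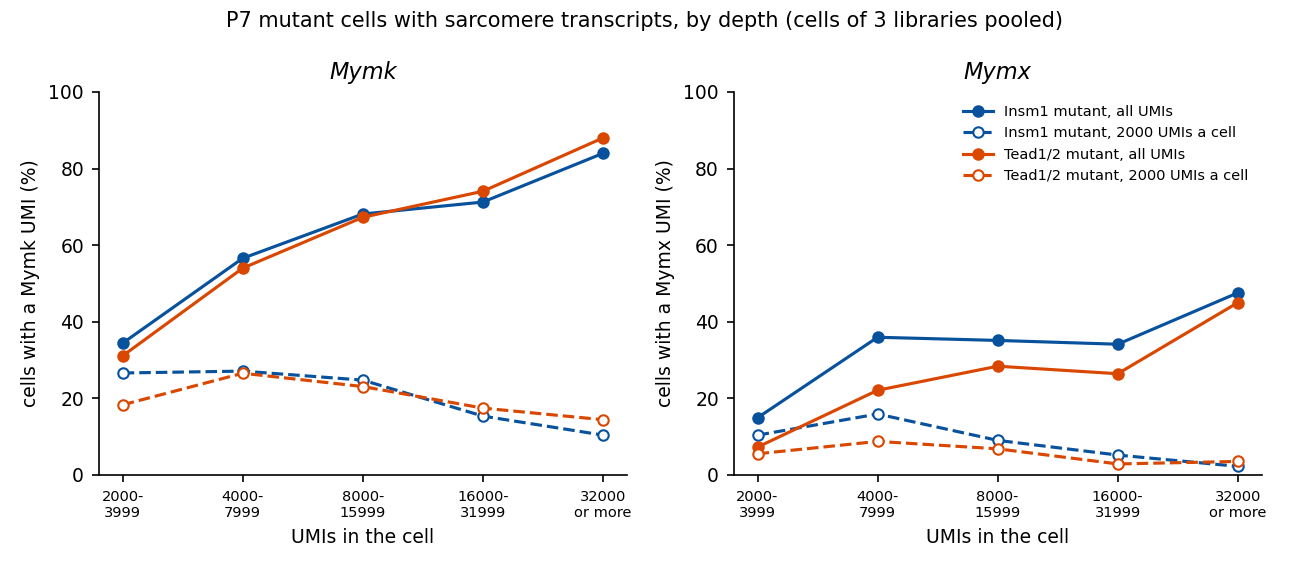
Share of P7 mutant sarcomere cells with a Mymk (left) or Mymx (right) UMI by the depth of the cell, with the cells of 3 libraries pooled per genotype. Filled points use all UMIs and open points 2000 UMIs per cell. The unthinned Mymk share climbs from 34.4 to 84.0% (Insm1) and 31.1 to 88.0% (Tead1/2), while the thinned share ends at 10.4 and 14.4%.

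The transcripts often shared a cell. Of sarcomere cells with an unthinned Mymx UMI, 79.3 to 81.0% also held Mymk in the 3 Insm1 mutants and 78.8 to 86.8% in the 3 Tead1/2 mutants. Of those with a Mymk UMI, 37.5 to 47.8% and 23.6 to 43.2% held Mymx. Deep cells show both genes more often, so shares were compared within depth bins. In each of 5 bins and both genotypes, Mymx was seen more often in cells with Mymk than in cells without. In the bin from 4000 UMIs this was 44.4 against 24.9% in the Insm1 mutants and 27.3 against 16.0% in the Tead1/2 mutants. No test was made, since cells of a library are not replicates.

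Clusters were formed with the fusion, regulator and sarcomere genes left out, while other muscle genes took part, so levels across them are a description. At least 8 skeletal muscle markers stood out in each of 5 of the 33 clusters. Clusters 31 and 30 were led by Rarb, Alk and Myog, cluster 19 by Myh3, Neb and Ttn, and cluster 29 by Myh8, Neb and Mybpc1. Cluster 2, with a median of 52598 UMIs and 75.6% of its cells marked by Scrublet, was led by the astroglial genes Gfap and Aqp4 as well as by Myh3, and is given by its number only. In mutants 2 and 3 of both lines Scrublet marked 98.7 to 99.8% of cluster 2 and 97.2 to 100% of cluster 30. It marked 78.5 to 100% of cluster 19, 42.9 to 89% of cluster 29 and 3.15 to 9.45% of cluster 31. In mutant 1 of both lines it marked 0% of each.

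Mymk was highest in cluster 31, with 165, 188 and 154 CPM in Insm1 mutants 1 to 3 and 153, 179 and 213 in Tead1/2 mutants 1 to 3. It was next highest in cluster 29, with 118, 107 and 86.4 in the Insm1 mutants and 117, 106 and 125 in the Tead1/2 mutants. Both genotypes overlapped in each of these clusters. Mymx was also highest in cluster 31, at 67.3, 95.1 and 79.2 CPM in the Insm1 mutants and 38.3, 62.3 and 66.2 in the Tead1/2 mutants. In cluster 29, by contrast, it stood at 9.26 to 18.8 and at 9.62 to 16.1. The level in cluster 31 was 1.30 to 1.79 times that in cluster 29 for Mymk and 3.88 to 7.28 times for Mymx, over the 6 libraries. Cells of cluster 31 were shallower, with median depths of 5284 to 6815 UMIs against 15012 to 22161 in cluster 29. The part of depth and doublets in these ratios was not tested. The fall of Mymx from cluster 31 to cluster 29 was larger than that of Mymk in every library, as a description without a test. Cluster 30, also led by Rarb, Alk and Myog, did not show this for Mymk. Its Mymk stood at 65.7 to 71.2 CPM in the Insm1 mutants and 71.6 to 102 in the Tead1/2 mutants, below cluster 29 in every library. Its Mymx, at 22.8 to 33.7 and 13.7 to 25.9 CPM, lay above cluster 29 in every library.

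In cluster 2 Mymk stood at 24.1 to 27.2 CPM in the Insm1 mutants and 49.7 to 53.0 in the Tead1/2 mutants, and in cluster 19 at 46.5 to 52.9 and 63.7 to 77.9. More cells of the Tead1/2 mutants met the sarcomere rule in both, 66.3 to 76.5% against 41.2 to 42.5% in cluster 2 and 78.0 to 85.1% against 51.6 to 65.0% in cluster 19. The same held in cluster 31, at 69.6 to 76.2% against 50.5 to 54.3%, where the Mymk levels overlapped, and in cluster 30, at 56.5 to 62.4% against 36.2 to 43.9%. Within every one of the 5 clusters the mean number of Mymk UMIs per Mymx UMI was higher in the Tead1/2 mutants, by amounts that differed between clusters. It was 3.36 ± 0.575 against 2.12 ± 0.280 in cluster 31, without overlap, and 9.04 ± 2.86 against 7.93 ± 4.15 in cluster 29 (n = 3 libraries each), where Insm1 mutant 1, at 12.7, lay above every Tead1/2 mutant. Mutant 1 of each line, made from all lobules, had the highest ratio of its line in each of the 5 clusters. In cluster 29 these were 12.7 (Insm1) and 12.2 (Tead1/2), and the part of the dissection was not tested.

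**Figure D5:**
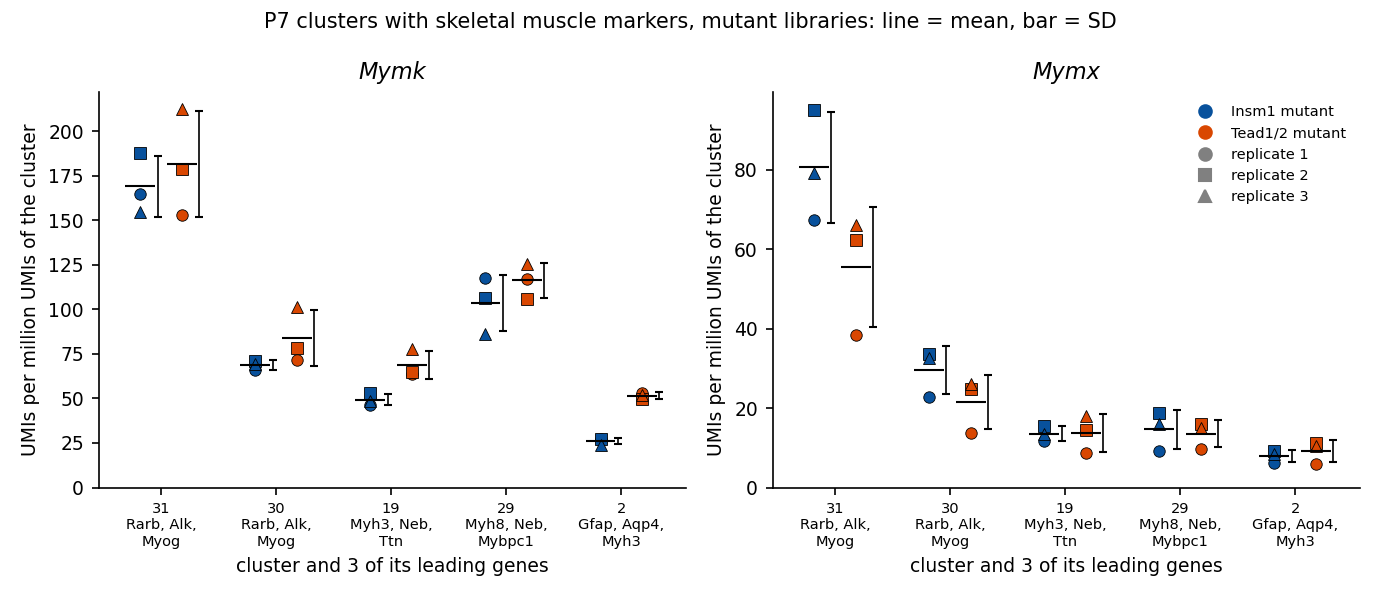
Level of Mymk (left) and Mymx (right) in CPM in the 5 clusters with skeletal muscle markers, on linear axes from 0. Points are the 6 P7 mutant libraries, lines are means and bars are SDs over 3 libraries. Mymx drops from 38.3 to 95.1 in cluster 31 to 9.26 to 18.8 in cluster 29, while Mymk stays at 86.4 or more in both.

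Clusters named for other cell types also held Mymk in the mutants. Ependymal and choroid-like cells, 41 and 177 in all, stood at 9.77 to 26.2 CPM of Mymk in the Insm1 mutants and 17.6 to 37.5 in the Tead1/2 mutants, and Purkinje-like cells at 16.4 to 19.8 and 15.05 to 29.4. Of these cells 16.1 to 33.3% and 5 to 52.2% met the rule for sarcomere cells. Endothelial-like cells stood at 12.2 to 15.8 CPM of Mymk in the Insm1 mutants and 13.4 to 30.2 in the Tead1/2 mutants, and meningeal fibroblast-like cells at 10.5 to 18.5 and 25.4 to 41.2. Sarcomere cells made up 7.07 to 13.8% of the endothelial-like cells in the Insm1 mutants and 10.8 to 25.4% in the Tead1/2 mutants. Over both genotypes they made up 7.47 to 28.97% of the meningeal fibroblast-like cells. The part of doublets and free RNA in these Mymk levels was not tested. GABAergic interneuron-like cells, with 0.424 to 5.41% sarcomere cells, held 0.554 to 1.30 CPM of Mymk.

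Other genes of the fusion pathway were read from lists. Over all genes 0.48% were called higher in the P2 Insm1 mutants and 0.689% in either direction. Of the sarcomere list, 20 of 25 tested genes rose (median log2 2.23, against 0.01 over all genes). They included Tnnc2, Mylpf and Tnni1, a fast troponin subunit, a fast regulatory myosin light chain and a slow troponin subunit, with log2 changes of 4.56, 4.32 and 4.30. The Tnni1 call was lost in 2 of 12 alternatives, among them without Insm1 control 1 (FDR 0.0585), and its log2 change was 5.99 without Insm1 control 2. Of 9 regulators tested 2 rose, Myog (log2 4.52) and Mef2c (0.37), and Myod1 had 1.67 with FDR 0.0748. The Myog call was lost in 7 of 12 alternatives, among them without control 1, control 4 or mutant 2, 3 or 4, and its log2 change was 6.94 without Insm1 control 2. The Mef2c call was lost in 6 of 12, among them without control 1, 2 or 4 or mutant 2 or 4. Among the genes that surround fusion, 1 of 14 adhesion genes rose, Cdh15 (2.43), which encodes the myoblast adhesion protein M-cadherin. Of 6 membrane genes 1 rose, Cav3 (4.06), the caveolin of muscle. Of 5 signalling genes 1 rose, Tmem182 (2.34), a membrane protein that restrains fusion. Its call was lost in 8 of 12 alternatives, among them without any single library but mutant 3 (FDR up to 0.144). None of 14 actin remodelling genes was called. Without the library labelled mutant 4, the P2 Tead1/2 mutants had 16 of 25 sarcomere genes, 3 of 10 regulators, 3 of 15 adhesion genes, 1 of 6 membrane genes and 1 of 5 signalling genes higher, where 1.98% of all genes were called higher and 3.19% in either direction. With it none was called by edgeR.

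At P7 the same lists were called more often, in comparisons that called 18.6% of all genes higher and 33.9% in either direction (Insm1), and 25.9% and 48.6% (Tead1/2). In the Insm1 and Tead1/2 mutants, 29 and 30 of 30 sarcomere genes rose, with median log2 changes of 5.74 and 7.41. Myh2 had 0 UMIs in the Tead1/2 controls, and the latter median was 7.39 with it at its lower bound against 3 counts over the control group. Of 12 regulators 9 rose in each line, with Myog at 6.83 and 7.37 and Myod1 at 3.03 and 5.41. The median of the regulators was 2.62 and 3.03, or 2.48 and 3.03 with Myf5, at 0 UMIs in all controls, at its lower bound. Of 15 adhesion genes 8 rose and 5 fell in the Insm1 mutants and 9 rose and 5 fell in the Tead1/2 mutants (medians 0.38 and 0.24). Cdh15 rose by 3.31 and 5.93, and Cdon and Kirrel3, both cell surface proteins of myoblasts and neurons, rose by 2.49 and 3.13 and by 2.39 and 1.82. Among 14 actin remodelling genes 3 rose and 4 fell in the Insm1 mutants and 2 rose and 4 fell in the Tead1/2 mutants (medians -0.07 and -0.08). Dock1, an activator of Rac that myoblast fusion needs, fell by 0.37 and by 0.70 on the log2 scale. Of 6 membrane genes 5 rose in each line, with Cav3 at 5.83 and 7.08 and Dysf, which encodes the membrane repair protein dysferlin, at 3.33 and 3.96. Of 5 signalling genes 2 rose in the Insm1 mutants and 3 rose and 2 fell in the Tead1/2 mutants, with Tmem182 at 6.32 and 7.17. In the test of the difference, 22 of 30 sarcomere genes, 3 of 12 regulators, 1 of 15 adhesion genes and 2 of 6 membrane genes had a higher value in the Tead1/2 mutants and 4 of 15 adhesion genes a lower one. None of 14 actin and 5 signalling genes was called, and over all genes 2.17% were called higher and 3.68% in either direction.

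Among the genes whose levels ran closest to the members' were several of muscle, such as Actc1, an actin of sarcomeres, and Klhl41, a protein of the muscle fibre. Over the 15 P2 libraries, which fall into mutants and controls, the log2 CPM of Mymk correlated best with Klhl41, Actc1, Tnni1, Gm28653 and Mymx, at Pearson r from 0.972 to 0.989. That of Mymx correlated best with Actc1, Klhl41, Car3, Jsrp1 and Tnni1, at 0.974 to 0.991. Over the 10 P7 sums the closest genes to Mymk were Klhl31, Actc1, Art1, Chrnb1 and Lincmd1, each at r of 0.999. To Mymx they were Car3, Smarcd3, Gm34095, Lhfp and Dok5, at 0.996 to 0.997. These values describe groups of libraries that stand far apart, and those at P2 include the library labelled Tead1/2 mutant 4.

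In RefSeq's annotation of GRCm38.p6 Mymk lies on chromosome 2 from 27061636 to 27072161 and Mymx on chromosome 17 from 45600961 to 45602196. Neither gene moved together with its neighbours at P2. Adamtsl2, 7175 bp from Mymk, had a log2 change of -0.09 in the P2 Insm1 mutants (FDR 0.824). Slc29a1, a nucleoside transporter gene 1343 bp from Mymx, fell by 0.67 in the P2 Insm1 mutants (edgeR FDR 0.00259) while Mymx rose. At P7 Slc29a1 fell by 0.73 and by 1.24 in the Insm1 and Tead1/2 mutants. Adamtsl2 rose at P7 by 1.21 and 0.97, and Fam163b, the next gene on that side, by 1.30 and 1.198. Capn11, beyond Mymx on the other side, rose by 2.78 in the Insm1 mutants and had 0.83 in the Tead1/2 mutants (FDR 0.228). Of the other 4 neighbours, Cacfd1 fell by 0.41 in the P7 Tead1/2 mutants, Tmem63b fell by 0.24 and by 0.34 at P7, and Slc2a6 and Hsp90ab1 were not called in any of these comparisons.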

How the data were processed

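The bulk libraries came with expected counts per gene, which the authors deposited without rounding. The submitters' processing notes name STAR 2.7.9a, RSEM 1.3.3 and the build GRCm38.p6, without saying which step used them. The table named for each line held the columns of the other, so libraries were taken from column names. Per the labels' protocols the P7 cells were fixed and barcoded by split-pool ligation (Parse Evercode), and the authors deposited whole-number counts of transcripts per cell and gene. Their replicate numbers come from the library names.

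Expected counts were rounded. Bulk libraries held 28066643 to 64518751 counts and P7 libraries 90269989 to 211707202 UMIs in cells, so a bulk gene at 0 may still be present below 3 counts. Cells needed 1000 UMIs, 500 genes and under 15% mitochondrial UMIs. Clusters came from scanpy 1.11.5 (2000 variable genes, 30 components, 15 neighbours, Leiden resolution 1). Doublets were marked with Scrublet in scanpy and kept, since it marked nearly no cells in 3 libraries. A cell sarcomere rule of 3 of 30 genes was applied after thinning to 2000 UMIs.

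Counts, and P7 counts summed over the cells of each library, were tested with edgeR 4.0.16 (filterByExpr, TMM, quasi-likelihood, R 4.3.3) with Benjamini-Hochberg adjustment over all genes tested, at a threshold of 0.05. Each line was fitted on its own samples at P2, and the difference between lines in a fit of all groups. Replicate libraries are separate animals. Same-numbered libraries mostly did not deviate together, with r from -0.21 to 0.06, so numbers were not used as pairs. The exception was Insm1 control 4 and mutant 4 at P2, with r of 0.34. DESeq2 1.42.0, other normalization, no filter on low counts, the replicate block, all barcodes, Scrublet removal and leaving out each library were alternatives. On simulated counts edgeR recovered 100% of log2 changes of 2 in the P2 Insm1 comparison (19374 genes) and 75% in the P7 difference (24126 genes). There all genes had the same dispersion, no library stood apart, and changed genes had more counts than Mymk had in P2 controls. Recovery was 99.5% for the P2 Tead1/2 comparison, where the fit of the real counts called 0 of 20247 genes. The recovery of Mymk at P2 was therefore not measured.

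The members and lists were chosen with earlier results of these data known. Named are both members, regulators, Cdh15 and the deleted genes where a result turns on them, up to 4 called genes per list with the largest change, the 5 most correlated genes, and the nearest 2 protein-coding neighbours on each side. Chromatin libraries were not used here. A result that this rule would name is not reported here.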

Additional observations from a re-analysis of the deposited data

Results flagged for a closer look

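In 5 of 33 groups of 4 libraries, 1 library lay far outside the range of the others, where chance gives about 1 in 20 for continuous values. That rate does not apply to Lmod3, where 1 count stood against 3 libraries at 0, and 3 of the 5 groups have the same library outside. For Mymx at P2 it was the library labelled Tead1/2 mutant 4, at 0.511 CPM. Insm1 control 2 was the highest of its group for Lmod3 (0.0268 CPM, a single count), Tnni1 (1.29 CPM) and Myog (3.92 CPM), and it also held the most Mymk and Mymx counts of the controls. Insm1 control 3 stood apart for Mef2c (59.3 CPM).

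At P7 the effect of the Tead1/2 deletion differed from that of the Insm1 deletion by edgeR's test of the difference for several genes, given as Tead1/2 minus Insm1 on the log2 scale. Mymk differed by 1.56. The sarcomere genes Tnnc1, Tnni2, Myh8 and Mybpc1 differed by 2.29, 2.09, 2.08 and 2.04. The regulators Myod1 and Mef2c differed by 2.37 and 0.75. Among adhesion genes Cdh15 differed by 2.61, and Adgrb3, Neo1 and Adgrb1 by -0.85, -0.59 and -0.55. The membrane genes Myof and Ehd2 differed by 1.49 and 1.02. Of 16 alternatives the call was lost in 12 for Mef2c, 11 for Ehd2, 10 for Myof, 7 each for Myh8 and Adgrb1, 4 for Adgrb3, 3 for Neo1 and 1 each for Mymk, Tnnc1 and Tnni2. It was kept in all 16 for Mybpc1, Myod1 and Cdh15.

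Barcodes under 100 UMIs, which no comparison used as cells, held more of both transcripts in mutants than in controls. Mymk stood at 20.3 and 35.4 CPM in the Insm1 and Tead1/2 mutants, and Mymx at 10.9 and 9.61 CPM.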

How the results depend on the processing

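At P2 the number of genes called in the Insm1 mutants was 135 by edgeR, 314 by DESeq2, 212 with no filter on low counts, 64 with the replicate block, and 64 to 132 with a library left out. Mymk ranged from 3.82 to 5.39 with a library left out, and its call was lost without Insm1 control 1 (4.21). With the block Mymk and Mymx stayed called (4.27 and 2.74). In the P2 Tead1/2 mutants 0 genes were called by edgeR, 960 by DESeq2, 1287 with no filter, 236 with the block, and 0 to 646 with a library left out, 646 being without the library labelled mutant 4. Mymk was then called with no filter (4.29), with the block (4.62) and without that library, over a range of 3.86 to 4.64. Mymx was called by DESeq2 (3.50), with no filter (3.52), with the block (3.85) and without that library, over 3.31 to 3.85. No control shares the number 4 in this line, so the block takes up the library labelled mutant 4 and is not separate from leaving it out. Without mutant 1, 2 or 3, Mymk did not pass the filter and gave no test.

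For the P2 difference DESeq2 called 17 genes, the fit with no filter 11 and fits with a library left out 0 to 8. The Mymk difference ranged from -1.14 to 0.45, being -1.14 without Insm1 control 2, -0.09 without Insm1 mutant 3, -0.33 without Tead1/2 control 3, -0.09 without Tead1/2 mutant 2 and -0.17 without Tead1/2 mutant 3.

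At P7, 5362 genes were called in the Insm1 mutants without Scrublet-marked cells. For the difference DESeq2 called 2133 genes against 906, and 195 to 1187 were called with a library left out, 195 without Tead1/2 control 2. Mymk was 0.52 over all deposited barcodes and not called. Within sarcomere cells 3270 to 5408 genes were called with a library left out, and 0 of 16355 without Scrublet-marked cells, where 1580 had an unadjusted p under 0.05. Mymk was then 0.056 and Mymx -0.98. Mymx ranged from -0.045 to 0.26 with a library left out, -0.045 being without Tead1/2 mutant 3. The causes were not tested.

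Within the alternatives run, of 1301 comparisons of other named genes with their alternatives, 1172 kept direction and call, 129 kept the direction only and 0 reversed. The same numbers correlated from -0.21 to 0.34 between groups. Mymk at P2 rests on 0 to 7 counts in each control.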

Other observations

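In granule progenitor-like clusters at P7 the balance of the members differed between the mutant genotypes, on few UMIs. The Insm1 mutants held 17, 37 and 17 Mymx UMIs beside 11, 11 and 8 Mymk UMIs. The Tead1/2 mutants held 8, 9 and 12 Mymx UMIs beside 17, 24 and 25 Mymk UMIs. Mymx thus outnumbered Mymk in 3 of 3 Insm1 mutants and in 0 of 3 Tead1/2 mutants, and the difference was not tested. The Insm1 controls had the same order, with 5 and 4 Mymx UMIs beside 2 and 1 Mymk UMIs, and the Tead1/2 controls held 5 and 5 beside 4 and 5. The cluster that held the largest part of these cells differed by genotype, being cluster 11 in the Insm1 mutants (2388 cells) and cluster 12 in the Tead1/2 mutants (2187 cells).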
